A study of Mus musculus with 2 samples.

Results

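Splicing factors and proteins of the small nuclear ribonucleoproteins (snRNPs) were followed in the intestine of Apc-Min mice with and without Setd2 in the intestinal epithelium. The 136 genes, of 18919 in the deposited table, were those whose symbol starts with Srsf, Hnrnp, Sf3a, Sf3b, U2af, Snrp, Prpf, Ptbp, Mbnl, Esrp, Celf or Tra2, or with Rbm or Lsm and a number. The knockout pool carried the Apc-Min mutation together with deletion of Setd2 in intestinal epithelial cells (APCmin; Setd2IEC-/-), and the control pool carried the Apc-Min mutation alone (APCmin). Both were on the C57BL/6 background, were 2 months old and were untreated, and the RNA of 3 littermates was pooled for each. The line that drives the deletion is not given in the sources used here, and the label limits it to epithelial cells, so RNA of other cells in the tissue still comes from cells with Setd2. Each genotype had 1 library, so no difference below has a replicate check and none was tested for significance. The expected counts added up to 8646358 in the knockout library and 8809678 in the control library.

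The spliceosome removes introns from pre-mRNA. It is built from the U1, U2, U4, U5 and U6 snRNPs, each a small RNA wrapped by a ring of Sm or LSm proteins and joined by proteins of its own, while SR proteins and hnRNPs bind the transcript and favour or repress nearby splice sites. Setd2 encodes the enzyme that trimethylates H3K36 along transcribed genes, and this mark has been linked to splice site choice through the reader MRG15 (Morf4l1), which can bring the repressor PTB (Ptbp1) to the transcript, and through the reader Psip1, which binds SR proteins. The comparison therefore shows whether the genes that encode the splicing machinery differ in level between the pools. It does not measure splicing.

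The splicing machinery was present at close to the same level in both pools. Levels are given in FPKM, the authors' fragment number scaled to transcript length and library size, and a gene was counted as measured when the mean of its FPKM over both libraries was 1 or more, which held for 127 of the 136 genes and for 12791 genes in all. Ratios are log2 values of knockout over control after 1 FPKM was added to both. Of the 127 genes, 0 were at least 2-fold higher and 0 at least 2-fold lower in the knockout pool, where 2.58% and 1.13% of all measured genes were. At 1.5-fold, 1 gene was higher (Rbm12) and 0 were lower, beside 7.29% and 3.21% of all measured genes. The other 126 lay within 1.5-fold on this scale, with log2 ratios between -0.40 (Snrpb2) and 0.58 (Prpf40b). The added 1 FPKM draws the ratios of low genes towards 0. By the ratio of scaled expected counts, with nothing added, 3 genes were at least 1.5-fold higher (Prpf40b, Rbm12 and Rbm34) and 1 was lower (Rbm48), beside 10.9% and 4.82% of all measured genes. The spread of the ratios was 0.21 (SD over 127 genes), against 0.48 over all measured genes.

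Within that narrow range the genes lay slightly to the higher side. Their median log2 ratio was 0.12, and the median of all measured genes was 0.08. A ratio above 0 was found for 90 of the 127 (70.9%), where 62.2% of all measured genes had one, and below 0 for 37, where 37.5% of all did. Their summed expected counts were 90055 in the knockout library and 82791 in the control library, which is 1.11 times as many when each library is divided by its own total (95% interval for counting error 1.10 to 1.12). Intervals of this kind, from the exact Clopper-Pearson interval of a binomial share, cover counting error only and no variation between mice or pools. The interval of the single-gene ratio lay above 1 for 46 of the 127 genes (36.2%, against 27.9% of all measured genes) and below 1 for 4 (3.15%, against 12.7%). The offset depends on the scaling. When the libraries were scaled by TMM factors (trimmed mean of M-values, a normalization that discounts the most unequal genes), the medians were 0.03 for these genes and -0.02 for all, 69 of 127 were above 0 (54.3%, against 47.6%), and the intervals lay above 1 for 26 and below 1 for 17 (20.5% and 13.4%, against 17.5% and 21.1% of all measured genes). Under both scalings the median of the splicing genes was 0.04 above that of all genes. Ratios of low genes scatter more, so the same counts were taken at a mean of 5 FPKM or more, which 110 of the splicing genes and 8333 genes in all reached. There 81 of the 110 were above 0 (73.6%, against 61.2%), 1 was at least 1.5-fold higher and 0 lower (against 4.68% and 2.66%), and the interval lay above 1 for 42 and below 1 for 4 (38.2% and 3.64%, against 30.6% and 16.2%).

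**Figure D1:**
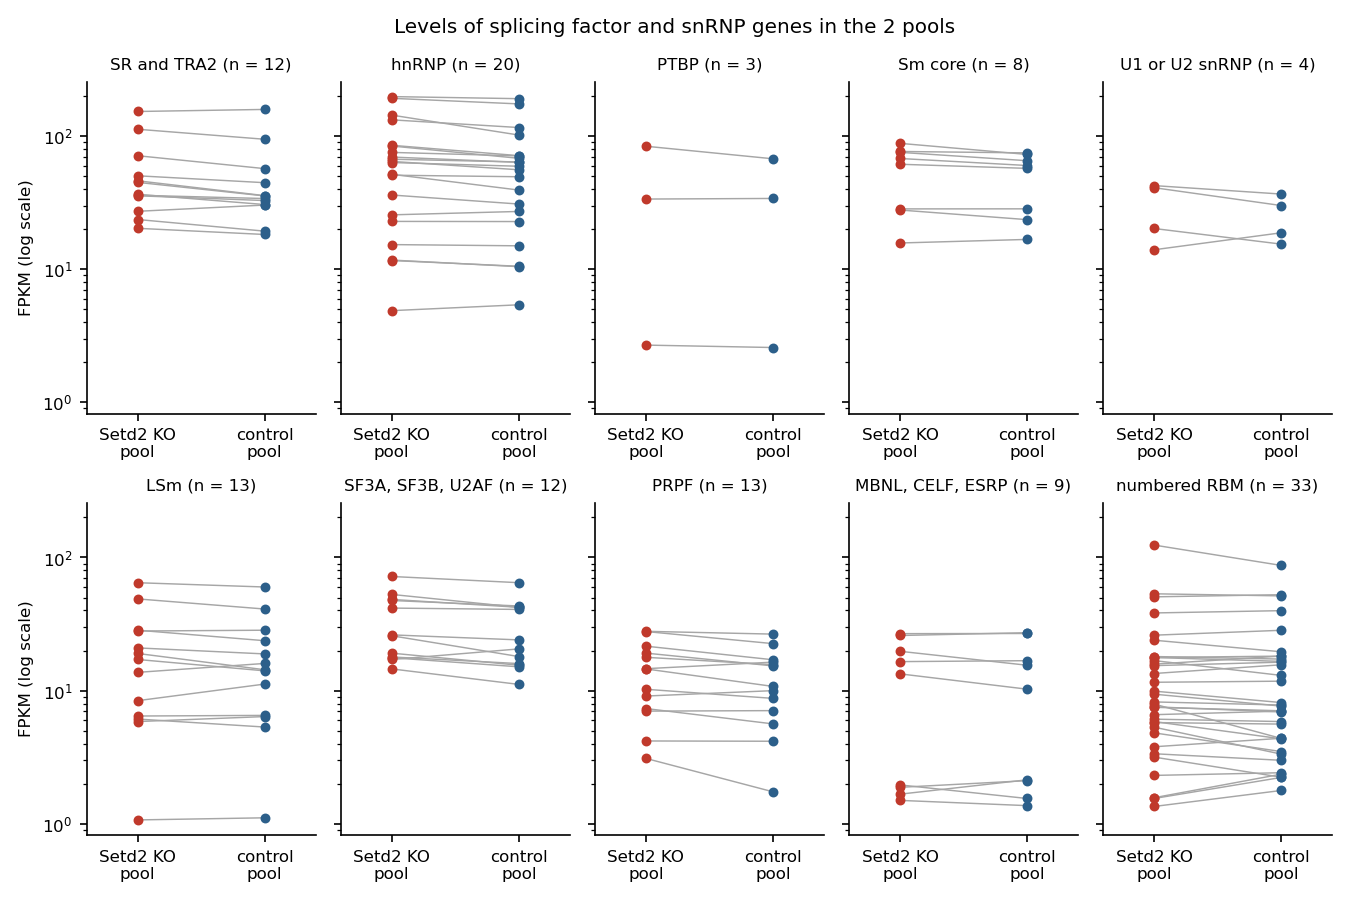
FPKM (log axis) of the 127 measured genes in the Setd2 knockout pool (left, red) and the control pool (right, blue), 1 library each, with a line joining the values of a gene and a panel for each role. The lines are close to flat in every panel; the steepest belong to genes of low level such as Prpf40b (3.10 FPKM in knockout, 1.74 in control).

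The tissue around these genes was not the same in both pools. The enterocyte list summed to 31710 FPKM in knockout and 44268 in control, with 28 of 30 genes below 0, while the 18 general epithelial genes summed to 9186 in knockout and 9285 in control. Proliferation genes summed to 608 in knockout and 432 in control, with 35 of 35 above 0 and a median of 0.41 (0.32 under TMM); its lowest genes, Mcm3 and Tyms, turned below 0 under median and TMM scaling. Genes of the exocrine pancreas, leaving out Zg16, summed to 3062 in knockout and 212 in control, while Zg16, which goblet cells also express, was at 1477 in knockout and 2152 in control; with Zg16, 20 of 22 measured genes were above 0, with a median log2 ratio of 4.31 and Cela3a, Prss1 and Try10 at 0 in control. Stomach genes summed to 164 in knockout and 13.4 in control, with 5 of 5 above 0 and Gif, Gkn2, Lipf and Muc5ac at 0 in control, and red cell genes summed to 240 in knockout and 66.5 in control, with 4 of 4 above 0 and Slc4a1 at 0 in control. Smooth muscle genes were at 747 in knockout and 735 in control, nerve and glia genes at 22.0 in knockout and 21.8 in control, and leukocyte genes at 1530 in knockout and 1557 in control. The part of these differences in the splicing factor values was not tested, and in bulk tissue fewer cells of a type and less RNA per cell cannot be told apart. Setd2 itself (chromosome 9, 110532500 to 110618633, mm10) was at 3.47 FPKM in knockout and 6.87 in control, a ratio of 0.504 (0.432 to 0.587).

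The windows before the transcription start of 6 members are shown. They belong to the members with the highest ratios in the SR, hnRNP, PTBP and U1 or U2 snRNP groups and to the scaffold gene Prpf19. The last is that of Snrpb2, the member with the lowest log2 ratio after 1 FPKM was added. By the count ratio, Rbm48 and Rbm12b1 were lower than Snrpb2. All 6 windows are the 250 bases before the start, 5′ to 3′ on the strand of the gene. The source is RefSeq on build GRCm38.p6, the assembly that mm10 also names. Capitals mark an ETS motif (CCGGAAG), an E-box (CACGTG) or a CCAAT box (CCAAT), on either strand.
Srsf6 (chr2:162931258-162931507, plus strand): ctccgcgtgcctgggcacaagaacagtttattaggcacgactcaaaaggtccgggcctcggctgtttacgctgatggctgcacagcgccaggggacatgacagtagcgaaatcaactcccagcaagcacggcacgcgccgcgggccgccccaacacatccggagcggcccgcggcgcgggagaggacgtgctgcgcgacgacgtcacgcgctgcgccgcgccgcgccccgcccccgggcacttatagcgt
Hnrnpab (chr11:51606882-51607131, minus strand): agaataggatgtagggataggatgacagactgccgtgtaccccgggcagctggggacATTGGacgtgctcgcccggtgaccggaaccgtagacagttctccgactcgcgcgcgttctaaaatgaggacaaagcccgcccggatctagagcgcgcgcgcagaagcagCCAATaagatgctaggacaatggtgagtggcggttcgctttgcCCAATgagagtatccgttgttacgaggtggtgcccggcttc
Ptbp1 (chr10:79854182-79854431, plus strand): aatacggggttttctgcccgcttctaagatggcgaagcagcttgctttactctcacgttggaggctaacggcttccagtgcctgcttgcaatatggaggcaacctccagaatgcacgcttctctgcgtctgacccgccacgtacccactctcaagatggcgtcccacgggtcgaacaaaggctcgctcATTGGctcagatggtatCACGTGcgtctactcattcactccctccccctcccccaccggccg
Snrpa (chr7:27196272-27196521, minus strand): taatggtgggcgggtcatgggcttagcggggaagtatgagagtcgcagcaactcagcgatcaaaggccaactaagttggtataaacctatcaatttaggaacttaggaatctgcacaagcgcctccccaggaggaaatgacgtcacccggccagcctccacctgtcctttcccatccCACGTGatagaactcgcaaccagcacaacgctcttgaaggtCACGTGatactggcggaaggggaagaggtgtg
Prpf19 (chr19:10894981-10895230, plus strand): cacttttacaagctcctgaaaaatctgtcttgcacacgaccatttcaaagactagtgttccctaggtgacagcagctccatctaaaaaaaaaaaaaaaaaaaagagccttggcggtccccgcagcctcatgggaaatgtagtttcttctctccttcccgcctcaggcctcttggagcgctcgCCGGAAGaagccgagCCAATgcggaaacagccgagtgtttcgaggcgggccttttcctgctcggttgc
Snrpb2 (chr2:143062819-143063068, plus strand): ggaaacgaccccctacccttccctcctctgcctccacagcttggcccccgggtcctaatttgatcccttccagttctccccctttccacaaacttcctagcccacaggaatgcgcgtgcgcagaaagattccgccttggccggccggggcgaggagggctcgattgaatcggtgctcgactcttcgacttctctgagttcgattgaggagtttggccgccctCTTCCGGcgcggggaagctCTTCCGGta

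The 6 sequences differ in these letters. Ptbp1 has 1 E-box and Snrpa has 2, Prpf19 has 1 ETS motif and Snrpb2 has 2, Hnrnpab has 3 CCAAT boxes and no E-box or ETS motif, and the Srsf6 window holds none of the marked motifs. Snrpa and Prpf19 each have 2 windows in the table, of which 1 is shown; the other Snrpa window also holds an E-box, and the other Prpf19 window holds a CCAAT box and no ETS motif. RefSeq windows of 300 bases (250 before and 50 after the start) were matched for 112 of the 136 genes, and 6 motifs were searched on both strands, none of which contains another. The 112 include genes below the filter, such as Rbm3os, whose window holds an ETS motif and an E-box. The genes they are set against are measured genes only. The ETS motif was in a window of 27 of the 112 genes (24.1%), against 19.8% of the 10091 measured genes with a window. The E-box was in 14.3% against 11.7%, the CCAAT box in 49.1% against 42.8%, the GC box (GGGCGG) in 66.1% against 66.7% and the TATA box (TATAAA) in 12.5% against 9.49%. The CGCG element, an inverted repeat of 10 bases that the factor BANP binds in mouse, was in a window of 5 of the 112 genes (4.46%), against 1.16% of measured genes. Those genes were Lsm14a, Rbm15, Rbm26, Rbm39 and Srsf10, and their log2 ratios spread from -0.02 (Lsm14a) to 0.36 (Rbm26). The shares above count a gene when any of its windows holds the motif. By window, all 32851 windows gave 8.86% for the ETS motif, 7.15% for the E-box and 37.4% for the CCAAT box. They gave 35.7% for the GC box, 13.6% for the TATA box and 0.466% for the CGCG element. The 156 windows of the splicing genes gave 20.5% for the ETS motif, 11.5% for the E-box and 43.6% for the CCAAT box. For the GC box, the TATA box and the CGCG element these 156 windows gave 59.6%, 10.3% and 3.21%. The median ratio of observed to expected CpG content was 0.877 over the windows of the splicing genes and 0.736 over those of measured genes. A match is a match of letters and no measure of binding.

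SR proteins, which carry an arginine and serine rich domain and promote exon inclusion, were higher in 10 of 12 measured genes, where 62.2% of all measured genes were, and in 9 under TMM scaling, where 47.6% of all were. An interval above 1 was found for 27.9% of all measured genes (17.5% under TMM) and below 1 for 12.7% (21.1% under TMM). At 1.5-fold, 7.29% of all were higher and 3.21% lower. These shares are the background for the groups that follow. The median log2 ratio of the SR genes was 0.21 (0.09 under TMM). Srsf6 was at 46.1 FPKM in knockout and 35.6 in control, a count ratio of 1.29 (1.195 to 1.399). Tra2a, an SR-like activator of exon inclusion, was at 44.8 in knockout and 35.5 in control, a ratio of 1.26 (1.13 to 1.41). Srsf3, the smallest of the classical SR proteins, was at 71.1 in knockout and 56.9 in control, a ratio of 1.24 (1.15 to 1.33). For Srsf2, Srsf3, Srsf6 and Tra2a the interval lay above 1 under TMM scaling too. The abundant Srsf5 was at 153 FPKM in knockout and 158 in control and Srsf11 at 27.2 in knockout and 30.3 in control, the only measured SR genes below 0, and their intervals lay below 1 under TMM scaling. Srsf2 (112 FPKM in knockout, 94.5 in control) and Srsf4 (35.9 in knockout, 33.9 in control, with a log2 ratio of 0.08 that turned to -0.01 and -0.03 under median and TMM scaling) lay between these. Srsf12 had 1 count in knockout and 0 in control, under the floor of 3 counts per library.

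The hnRNPs, abundant binders of nascent transcripts of which many repress exons, were higher in 18 of 20 genes and in 12 under TMM, with a median of 0.13 (0.03 under TMM). They were also the most abundant of the role groups by sum, at 1403 FPKM in knockout and 1245 in control. Hnrnpab (chromosome 11, 51600100 to 51606881), an RNA binding protein with roles in mRNA transport, was at 143 FPKM in knockout and 102 in control, a ratio of 1.41 (1.33 to 1.49), and of the marked motifs its window above holds CCAAT boxes only. Hnrnpa0 was at 51.6 in knockout and 39.3 in control, a ratio of 1.31 (1.205 to 1.43), and Hnrnpu, a large nuclear scaffold protein, at 84.1 in knockout and 68.0 in control, a ratio of 1.24 (1.17 to 1.31). By contrast, the 2 most abundant members were closer to 1. Hnrnpa2b1 was at 198 FPKM in knockout and 191 in control, and its log2 ratio of 0.05 turned to -0.04 under median and -0.06 under TMM scaling. Hnrnpf was at 192 in knockout and 174 in control. The lowest ratios were those of Hnrnpr (4.88 in knockout, 5.40 in control), Hnrnph2 (25.6 in knockout, 27.1 in control) and Hnrnpdl (22.8 in knockout, 22.8 in control). Exons of Hnrnpab and of Phykpl on the other strand share 29.1% of the exon bases of Hnrnpab in GENCODE M21, and the strand setting of the counting is not given in the sources used here. The same limit holds, among others, for Snrpf with Ccdc38 (65.9% of its exon bases), Srsf4 with Gm12992 (43.0%) and Prpf31 with Gm15927 (18.1%). It also holds for Sf3a2 with Plekhj1 (16.1%), Srsf2 with Mettl23 (15.6%) and Snrpa with BC024978 (327 of 2964 exon bases).

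Polypyrimidine tract binding proteins repress exons by binding pyrimidine-rich stretches, and Ptbp1 is the form of dividing and non-neural cells, Ptbp2 that of neurons. Ptbp1 (chromosome 10, 79854432 to 79864435) was at 83.7 FPKM in knockout and 67.4 in control, a ratio of 1.23 (1.16 to 1.31), and 1.14 (1.07 to 1.22) under TMM. Ptbp3 was at 33.6 in knockout and 34.0 in control, and Ptbp2 at 2.69 in knockout and 2.58 in control. The interval of Ptbp3 included 1 as deposited (0.930 to 1.05) and lay below 1 under TMM (0.862 to 0.975). Ptbp1 was 69.8% of the summed FPKM of the 3 genes in knockout and 64.9% in control, and Ptbp3 was 28.0% in knockout and 32.7% in control. The median of the 3, 0.04, turned to -0.02 and -0.04 under median and TMM scaling. Of the proteins that link H3K36me3 to these factors, Morf4l1 was at 79.7 FPKM in knockout and 80.0 in control, Psip1 at 7.81 in knockout and 5.81 in control (a ratio of 1.34, 1.06 to 1.68), and Zmynd11, a reader linked to intron retention, at 12.5 in knockout and 12.4 in control. A wider list held writers and readers of H3K36 methylation and related genes, not only those of the trimethyl mark. Of its 14 measured genes, Setd2 included, 11 were above 0, with a median of 0.22, 0 were at least 1.5-fold higher and 1, Setd2, was lower. The others at the ends of that list were Brpf1 (8.51 FPKM in knockout, 6.23 in control), Mtf2 (4.94 in knockout, 3.58 in control) and Whsc1l1 (13.6 in knockout, 13.7 in control), and the most abundant was Morf4l2 (103 in knockout, 99.3 in control, below 0 under median and TMM scaling).

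**Figure D2:**
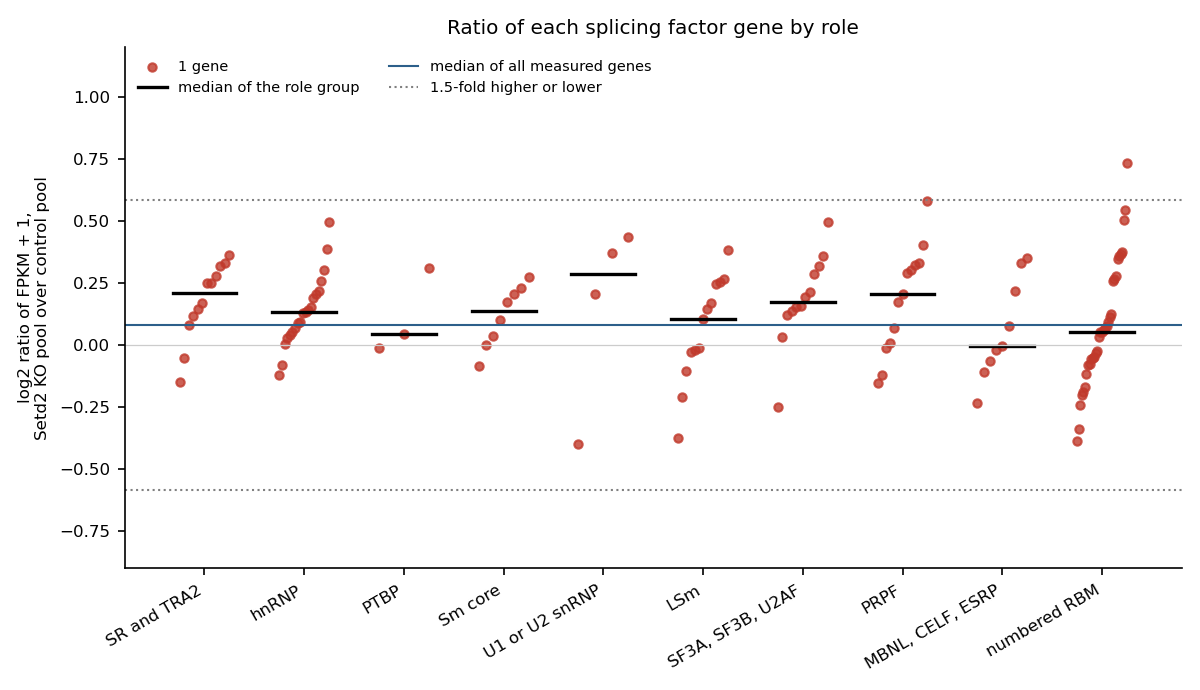
Log2 ratio of FPKM + 1 (knockout pool over control pool) for each measured gene by role, with the median of each role (black bars), the median of all measured genes (blue line, 0.08) and the 1.5-fold limits (dotted). One RBM gene, Rbm12, lies above the upper limit and none below the lower one.

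The Sm proteins, which form the ring shared by the U1, U2, U4 and U5 snRNPs, varied least among themselves of the role groups with more than 3 genes. All 8 had log2 ratios between -0.08 and 0.27, with a spread of 0.13 (SD over 8 genes) and a median of 0.14 (0.03 under TMM). Snrpd2 was the highest, at 88.0 FPKM in knockout and 72.7 in control, a ratio of 1.21 (1.04 to 1.41) and the single Sm gene whose interval lay above 1; under TMM scaling there was none. Snrpf was at 27.8 in knockout and 23.5 in control and Snrpg at 75.4 in knockout and 65.2 in control. Snrpb, whose protein SmB is replaced by that of its imprinted relative Snrpn in neurons, was at 76.5 FPKM in knockout and 74.6 in control, and Snrpd1 was at 28.3 in knockout and 28.4 in control. Snrpn was at 15.7 in knockout and 16.7 in control, or 17.1% of the summed FPKM of Snrpb and Snrpn in knockout and 18.3% in control. Since Snrpn shares exons with Snurf, the expected counts of both were added, which gave 297 in knockout and 320 in control, a ratio of 0.946 (0.805 to 1.11).

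The proteins particular to U1 or U2 went both ways. Snrpa, whose protein binds a loop of U1 RNA, was at 40.9 FPKM in knockout and 30.04 in control, a ratio of 1.35 (1.18 to 1.55). Snrpa1, a U2 protein, was at 20.2 in knockout and 15.4 in control, a ratio of 1.31 (1.07 to 1.61), and Snrpc, a U1 protein that helps to read the 5′ splice site, was at 42.4 in knockout and 36.6 in control. Snrpb2 (chromosome 2, 143063069 to 143072052), which encodes the partner of the Snrpa1 protein, was at 13.98 FPKM in knockout and 18.75 in control, a ratio of 0.745 (0.598 to 0.926). The Snrpa1 and Snrpb2 proteins bind U2 RNA as a pair, and their genes lay on opposite sides of 1 in these pools. Snrpb2 remained below 1 under TMM scaling, at 0.690 (0.554 to 0.858), and the interval of Snrpa1 reached below 1 there, from 0.987.

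The factors that recognise the branch point and the 3′ splice site were higher in 11 of 12 genes and in 10 under TMM, with a median of 0.17 (0.07 under TMM). All 9 genes of the SF3A and SF3B complexes, which belong to U2 snRNP, were above 0 as deposited; Sf3b1 turned below 0 under median and TMM scaling. Sf3b4 (chromosome 3, 96172506 to 96177564) was at 25.8 FPKM in knockout and 18.03 in control, a ratio of 1.43 (1.22 to 1.68). Sf3a1 was at 14.6 in knockout and 11.1 in control, a ratio of 1.31 (1.16 to 1.47). Sf3b1, the branch point binding subunit that is often mutated in myeloid disease, was close to equal at 41.7 FPKM in knockout and 40.7 in control, and Sf3b6, which contacts the branch point, was at 26.2 in knockout and 24.1 in control. U2af1, which reads the AG at the 3′ splice site, was at 52.8 in knockout and 42.2 in control, a ratio of 1.2505 (1.08 to 1.45), and its partner U2af2, which binds the pyrimidine tract, at 72.0 in knockout and 64.7 in control. Their relative U2af1l4 was the 1 member below 0, at 17.1 FPKM in knockout and 20.6 in control, so U2af1 was 75.5% of the summed FPKM of U2af1 and U2af1l4 in knockout and 67.2% in control. Exons of Gm49396 on the same strand, a gene with no deposited value, share 65.6% of the exon bases of U2af1l4 in GENCODE M21. The interval of U2af1l4 as deposited, 0.652 to 1.06, includes 1. Under TMM it lay below 1 (0.604 to 0.983), and that of U2af1 reached below 1, to 0.999.

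The PRPF proteins act in the tri-snRNP and at the catalytic core, and 10 of 13 genes were higher and 8 under TMM, with a median of 0.21 (0.11 under TMM). Prpf40b, which is linked to the U1 snRNP, had the highest ratio within the group and its lowest level, at 3.10 FPKM in knockout and 1.74 in control from 86 counts in knockout and 49 in control, a ratio of 1.79 (1.245 to 2.59). Prpf19, the ubiquitin ligase at the centre of the complex named after it, was at 14.6 in knockout and 10.8 in control, a ratio of 1.35 (1.21 to 1.51). Prpf31 was at 7.34 in knockout and 5.63 in control. Prpf8, the large protein that holds the catalytic centre, was at 27.8 FPKM in knockout and 22.6 in control, a ratio of 1.23 (1.15 to 1.32). At the low end were Prpf38a (14.6 FPKM in knockout and 16.4 in control), Prpf18 (273 expected counts in knockout, 305 in control) and Prpf39 (7.02 FPKM in knockout, 7.08 in control). Prpf38b, the most abundant beside Prpf8, was at 27.9 FPKM in knockout and 26.6 in control, with a sign that turned under median and TMM scaling. The interval lay above 1 for 6 of the 13 as deposited (46.2%, against 27.9% of all measured genes). Under TMM it did so for 5, among them Prpf19 and Prpf8, where 17.5% of all measured genes had such an interval.

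The LSm group was mixed, with 7 of 13 above 0 and a median of 0.11 that turned to -0.004 under TMM. Lsm2 to Lsm8 form the ring on U6 RNA, and Lsm1 takes the place of Lsm8 in the cytoplasmic ring that acts in mRNA decay. Of these 8 genes 5 were above 0, and no interval excluded 1. Lsm2 was at 17.1 FPKM in knockout and 14.1 in control, Lsm3 at 48.8 in knockout and 41.0 in control, Lsm4 at 64.6 in knockout and 60.0 in control, and Lsm7 at 28.4 in knockout and 23.7 in control, against Lsm5 at 13.7 in knockout and 16.01 in control and Lsm6 at 5.86 in knockout and 6.39 in control. These genes had 58 to 522 counts in knockout, so differences of this size were not detectable for most of them. The intervals that excluded 1 were those of genes outside the rings on U6 and mRNA. Lsm12 was at 19.0 FPKM in knockout and 14.4 in control, a ratio of 1.33 (1.07 to 1.65), and Lsm14b, of the cytoplasmic granule family, at 8.41 in knockout and 11.2 in control, a ratio of 0.7501 (0.618 to 0.910). Under TMM scaling the interval of Lsm12 reached below 1, to 0.989, and that of Lsm14b did not reach 1.

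Of the 9 measured tissue-restricted regulators, 4 were above 0 and 5 below, with a median of -0.004 (-0.13 under TMM, 0.01 after rescaling to TPM). Both ESRP genes were higher, as were Mbnl3 and Celf3 among the 7 MBNL and CELF genes. Esrp1 and Esrp2 encode the splicing regulators of epithelial cells, which keep exon choices that are lost in mesenchymal cells. Esrp1 was at 19.8 FPKM in knockout and 15.5 in control, a ratio of 1.27 (1.13 to 1.43), and Esrp2 at 13.4 in knockout and 10.3 in control, a ratio of 1.30 (1.10 to 1.55). Both intervals stayed above 1 under TMM. The general epithelial list had 11 of 18 genes above 0 and a median of 0.05 (-0.06 under TMM), but its genes went both ways. As deposited, the interval lay above 1 for 8 of the 18 (44.4%, against 27.9% of all measured genes). It lay below 1 for 6 (33.3%, against 12.7%). Krt18 (1.87), Elf3 (1.45) and Krt19 (1.315) had higher count ratios than both ESRP genes, and Krt20 (0.771) had the lowest of the list. The ratio of Esrp1 to Esrp2 hardly differed, Esrp1 being 59.6% of their sum in knockout and 60.2% in control. Mbnl2, of the muscleblind family that favours adult exon choices, was at 26.0 FPKM in knockout and 27.2 in control, and Mbnl3 at 1.96 in knockout and 1.55 in control. Celf1, which often acts against muscleblind, was at 26.8 in knockout and 26.9 in control, and its log2 ratio of -0.004 was 0.01 after rescaling to TPM and -0.13 under TMM. Under TMM the intervals of Celf1 (0.847 to 0.983) and Mbnl2 (0.809 to 0.960) lay below 1. Celf5 (1.67 in knockout, 2.14 in control) and Celf2 (1.88 in knockout, 2.11 in control) were lower in level and had intervals that include 1. Celf4 and Celf6 were below 1 FPKM in both pools.

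The numbered RBM genes share an RNA binding motif and no single task: some act in the spliceosome, others in ribosome assembly, RNA editing, RNA decay or the response to cold. Of 33 measured, 19 were above 0, with a median of 0.05 that turned to -0.03 and -0.05 under median and TMM scaling. Under TMM 12 of the 33 were above 0 (36.4%, against 47.6% of all measured genes). The interval lay above 1 for 9 and below 1 for 1 as deposited. Under TMM it lay above 1 for 5 and below 1 for 6, where 17.5% and 21.1% of all measured genes had such intervals. Rbm12 (chromosome 2, 156094882 to 156111965) was the 1 gene past 1.5-fold after 1 FPKM was added, at 7.93 FPKM in knockout and 4.38 in control, from 258 expected counts in knockout and 146 in control, a ratio of 1.80 (1.46 to 2.22). Rbm12 shares 2182 exon bases (32.6%) with Gm28036 on the same strand, a gene with no deposited value. Rbm12 also shares 404 exon bases with Cpne1 on the same strand. The counts of Rbm12 and Cpne1 are not whole numbers, as RSEM gives when reads are divided between genes. Cpne1 was at 9.87 FPKM in knockout and 9.79 in control, and adding both genes gave 560 counts in knockout and 450 in control, or 1.27 times as many (1.12 to 1.44). The size of the Rbm12 value is uncertain for this reason.

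Rbm34 was at 5.32 FPKM in knockout and 3.34 in control, a ratio of 1.598 (1.24 to 2.07). Rbm3, a cold-induced protein and the most abundant of the group, was at 124 in knockout and 87.2 in control, a ratio of 1.39 (1.28 to 1.499). Rbm39, a relative of U2af2, was at 53.4 in knockout and 51.5 in control. RBM genes with known splicing roles lay on both sides of 1. Rbm17 was at 23.9 FPKM in knockout and 19.6 in control, a ratio of 1.22 (1.04 to 1.44), and its interval under TMM included 1 (0.960 to 1.33). Rbm5 was at 26.1 FPKM in knockout and 28.4 in control and Rbm6 at 13.5 in knockout and 15.6 in control, a ratio of 0.859 (0.756 to 0.976), while Rbm10 of the same subfamily was at 18.04 in knockout and 17.3 in control. Rbm47, a partner of the enzyme that edits apolipoprotein B mRNA in the intestine, was at 50.6 FPKM in knockout and 52.5 in control. The lowest ratios were those of Rbm48, at 1.57 in knockout and 2.36 in control (0.665, 0.412 to 1.06), Rbm12b1, at 1.55 in knockout and 2.23 in control, and the muscle regulator Rbm24, at 1.35 in knockout and 1.78 in control. Rbm12b1 and its neighbour Rbm12b2 (4.82 in knockout, 3.49 in control) are close copies without whole counts, and their summed counts were 190 in knockout and 173 in control, a ratio of 1.12 (0.906 to 1.38).

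**Figure D3:**
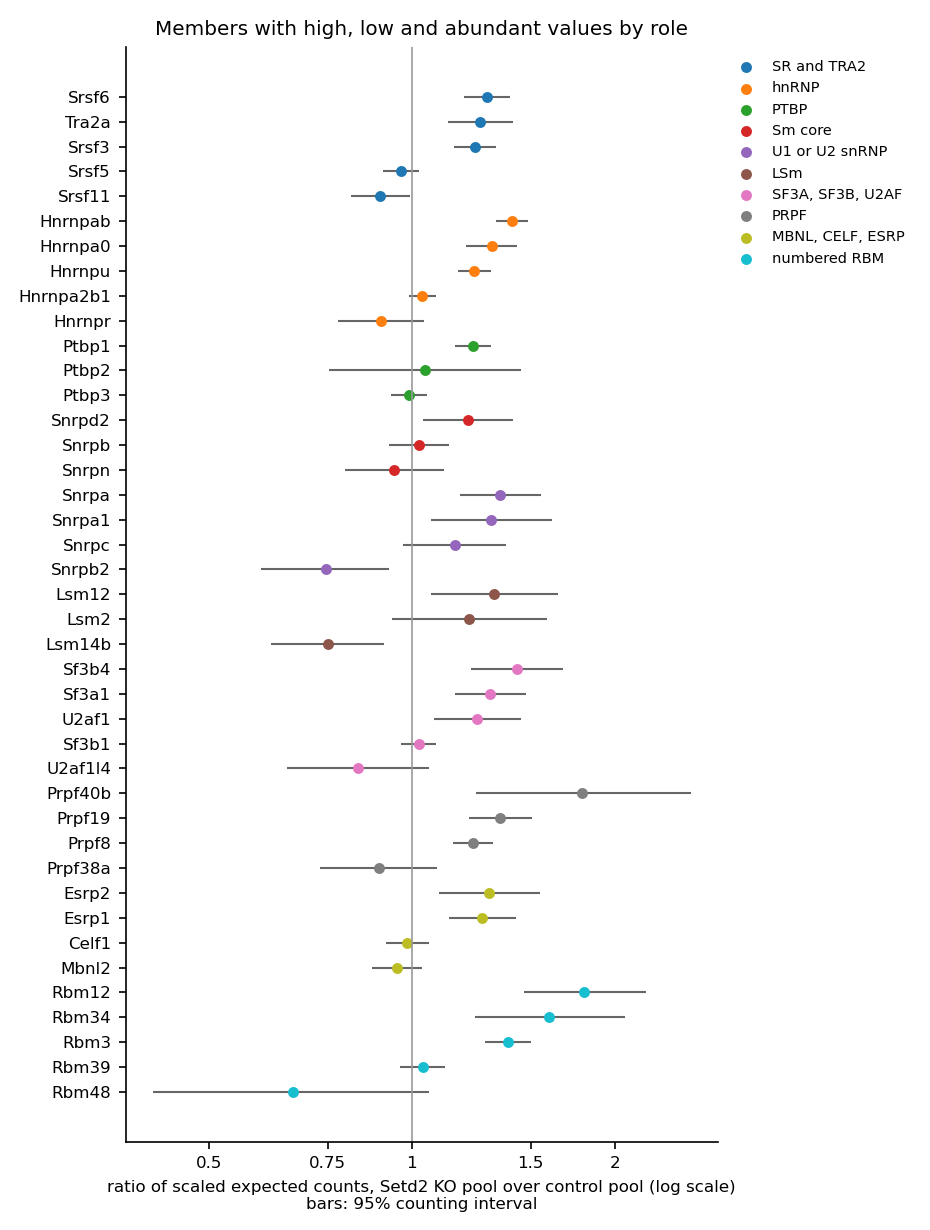
Ratio of scaled expected counts (knockout pool over control pool, log axis) with 95% counting intervals for 41 members, grouped by role and sorted within each role. Hnrnpab, Sf3b4, Rbm12 and Rbm3 lie clear of 1 on the higher side and Snrpb2 and Lsm14b on the lower side; the bars hold counting error only.

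The 9 genes below the filter were Celf4, Celf6, Rbm11, Rbm20, Rbm44, Rbm46, Srsf12 and the antisense transcripts Rbm3os and Rbm46os, which match the symbol rule and encode no protein of this kind. They had at most 0.54 FPKM in knockout and 0.68 in control, and at most 31 counts, and no ratio is given for them.

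Genes that work with these proteins have, apart from Prpf4b, other symbols. Their lists had medians from 0.06 to 0.22. Some genes lay below the lowest member, such as Dhx38 (log2 ratio -0.65) and Snupn (-0.46). Of 50 other spliceosome proteins, 36 were above 0, with 0 at least 1.5-fold higher, 1 lower (Dhx38) and a median of 0.06, which turned to -0.02 and -0.03 under median and TMM scaling. Dhx38, the helicase PRP16 that acts between the catalytic steps, was at 8.91 FPKM in knockout and 14.5 in control, a ratio of 0.613 (0.533 to 0.704). Its relative Dhx8, which releases the spliced mRNA, was at 9.92 in knockout and 6.93 in control, a ratio of 1.43 (1.22 to 1.68). Cd2bp2 was at 23.4 in knockout and 16.8 in control, Snrnp27 at 16.6 in knockout and 19.4 in control, and the U1 protein gene Snrnp70, the most abundant, at 81.6 in knockout and 74.0 in control. The minor spliceosome list had 7 of 10 above 0, 0 past 1.5-fold and a median of 0.16, with Zrsr2 (5.29 FPKM in knockout, 3.72 in control) and Rnpc3 (5.73 in knockout, 4.66 in control) highest and Zrsr1 (1.63 in knockout, 2.12 in control) and Scnm1 (20.8 in knockout, 25.8 in control, the most abundant) lowest.

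The snRNP assembly list held factors that load the Sm ring onto snRNA in the cytoplasm and genes of other steps, such as import. Of its 19 genes, 14 were above 0 (11 under TMM), with a median of 0.22. Among all measured genes 62.2% were above 0 (47.6% under TMM). After 1 FPKM was added 2 were at least 1.5-fold higher and 0 lower, beside 7.29% and 3.21% of all measured genes. By the count ratio 4 were higher (Gemin4, Gemin5, Gemin8 and Smn1) and 1 lower (Snupn), beside 10.9% and 4.82% of all measured genes. Gemin5, which recognises the snRNA, was at 3.95 FPKM in knockout and 2.23 in control, a ratio of 1.79 (1.42 to 2.25), and Gemin8 at 2.44 in knockout and 1.27 in control, from 37.2 counts in knockout and 19.8 in control. Smn1, the core of the same complex, was at 14.3 in knockout and 9.31 in control, a ratio of 1.52 (1.18 to 1.97), and was chosen after its value was seen. In contrast Gemin7 was at 30.5 FPKM in knockout and 39.5 in control, a ratio of 0.770 (0.636 to 0.931). Snupn, an import adaptor, was at 0.94 in knockout and 1.67 in control, from 11 counts in knockout and 20 in control. The assembly genes lay on both sides of 1.

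Kinases and partners of SR proteins had 8 of 10 above 0, 0 past 1.5-fold and a median of 0.16. Clk2 was at 8.75 FPKM in knockout and 6.25 in control, Ppp1ca at 142 in knockout and 109 in control, Clk1 at 46.7 in knockout and 52.4 in control and Dyrk1a at 12.3 in knockout and 12.5 in control. Of 35 other regulators, 31 were above 0 and 2 at least 1.5-fold higher, with a median of 0.17. Khdrbs3, of the STAR family, was at 4.26 FPKM in knockout and 2.32 in control, a ratio of 1.83 (1.23 to 2.77), and Qk, of the same family, at 4.49 in knockout and 2.49 in control, a ratio of 1.79 (1.41 to 2.28). Pcbp1, the most abundant, was at 150 in knockout and 134 in control. The lowest were the exon junction genes Magohb (5.13 in knockout, 5.65 in control) and Magoh (34.1 in knockout, 36.5 in control).

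**Figure D4:**
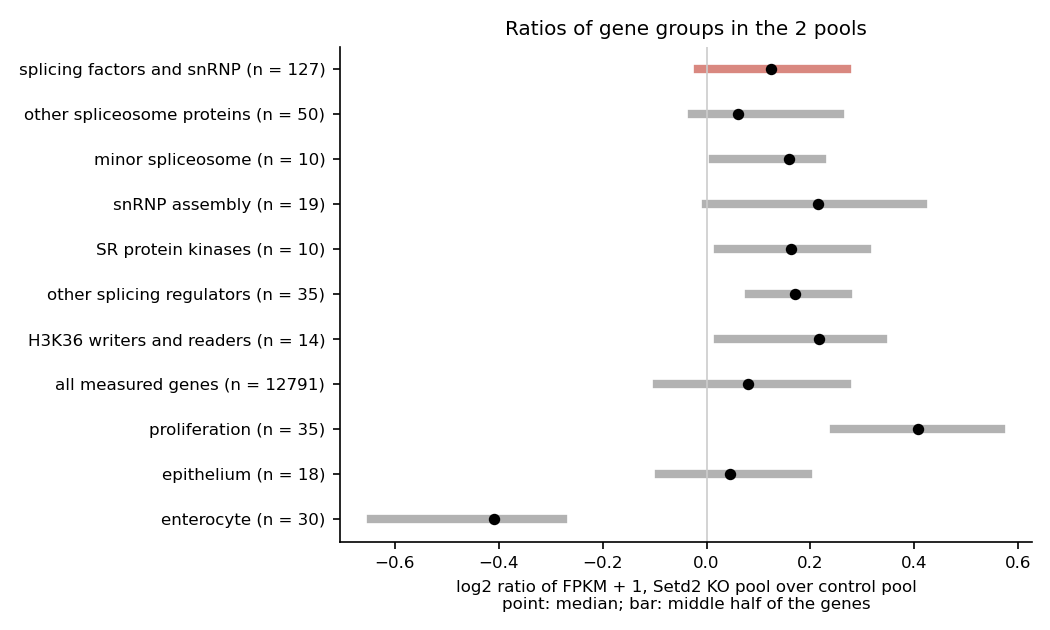
Median (point) and middle part of the genes, from the lower to the upper quartile (bar), of log2 ratios of FPKM + 1 for the splicing factor genes (red), lists of their partners, all measured genes, and proliferation, epithelial and enterocyte genes. The splicing lists have medians between 0.06 and 0.22, next to 0.08 for all genes, 0.41 for proliferation and -0.41 for enterocyte genes. Prpf4b is counted both with the splicing factor genes and with the SR protein kinases.

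A second readout of the files concerns isoforms. RSEM gives each gene a length that averages its transcripts by their abundance, so that for a gene with several transcripts a different length goes with a different estimated mix. This readout was chosen after the files were seen, and its error is unknown. Of the 52 measured splicing genes with more than 1 transcript, 43 had a length that differed by more than 0.5 nt between the libraries (82.7%, against 79.0% of 4057 such genes in all), and for 5 the difference was over 2% (9.62%, against 19.2%). The 5 were Hnrnpa3 (4099 nt in knockout, 3901 in control), Celf3 (2988 in knockout, 2875 in control), Lsm10 (927 in knockout, 892 in control), Rbm3 (1418 in knockout, 1453 in control) and Rbm18 (2563 in knockout, 2510 in control). Hnrnpa3 had 2262 counts in knockout and 2055 in control and Rbm3 had 1509 in knockout and 1109 in control, while the others had at most 156 in a library.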

How the data were processed

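Intestinal RNA of 1 knockout pool and 1 control pool was sequenced. Per the labels' protocols, reads were mapped to mm10 with BWA or Bowtie and quantified with RSEM; versions are not given in the sources used here. The authors deposited, per the file headers, expected counts, FPKM and a transcript length per gene and library, and a series table with the same FPKM. Genes were grouped by symbol, and the members and all lists were chosen with earlier results of these data known. Measured genes had a mean FPKM of 1 or more; ratios used a pseudocount of 1. Count ratios were taken from rounded expected counts scaled to library totals, with 95% exact binomial intervals; they cover counting error only. With 1 library per group no test was made. Both calculations were tested on simulated data with known fold changes. TMM factors came from edgeR 4.0.16 in R 4.3.3, the rest from Python 3.11.15 with scipy 1.17.1. For each role group the 3 highest, 3 lowest and 2 most abundant measured members are named, with every member past 1.5-fold; for each splicing list the 2 highest, 2 lowest and most abundant; other genes were named after their values were seen. Counts were whole, with no remainder at the 2 decimals given, in both libraries for 101 of the 127 measured members. Alternatives were other pseudocounts, filters and scalings, TPM, whole counts only, a stricter reading of the symbol rule, and RBM genes left out.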

Additional observations from a re-analysis of the deposited data

How the results depend on the processing

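No paired analysis was possible because each genotype had 1 library, and no library could be left out. The count of members at least 1.5-fold higher, 1 as reported, was 3 with a pseudocount of 0.1, with 0.01, after rescaling to TPM, with CPM and by the count ratio with no pseudocount, 2 with TMM factors, and 0 with whole expected counts only or without the RBM genes. The count at least 1.5-fold lower, 0 as reported, was 1 with a pseudocount of 0.01 and by the count ratio. The count ratio was added as a setting after the data were seen. The counts at 2-fold were 0 in every setting run. The members' median of 0.12 was 0.0388 after division by the median ratio of all genes and 0.0279 with TMM factors, and from 0.12 to 0.15 in the other settings. Of the 110 values of role group medians under alternatives, 108 moved by less than the order-statistic interval of the median over the genes (the range for fewer than 6 genes); the other 2 were those of the hnRNPs under median (0.04) and TMM (0.03) scaling. For the 65 named members, 671 values moved by less than the counting interval and 21 by more. The cause of these shifts was not tested. Depth limits the members with few counts, and 4 of the 127 measured had a mean under 50 counts.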
